A study of Mus musculus with 6 samples.

Results

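The 48 translation initiation factor genes of the mouse prostate are described here, taken from bulk RNA-seq of a Hi-MYC mouse and a wild-type (WT) littermate. Members are the genes whose symbol starts with Eif and a digit, without the Eif2ak kinases, and whose mean over the 6 libraries is at least 1 FPKM (reads of a gene corrected for transcript length and for the depth of its library). Of 24908 genes in the table, 51 symbols matched and 48 reached that mean, among 12361 genes of all kinds that did. The 3 that did not are Eif5a2 at 0.272 to 0.738 FPKM, Eif3j1 at 0.0281 to 0.0553 FPKM and Eif4e1b, which is listed at 0 in all 6 libraries. The mean level gap at the threshold is wide, since Eif5a2 has a mean of 0.477 FPKM and the lowest member, Eif4e3, one of 7.19 FPKM.

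Both mice were FVB males of 12 weeks, and from each the anterior (AP), dorsolateral (DLP) and ventral (VP) prostate lobe gave 1 library. The MYC mouse is heterozygous for a human c-MYC transgene under the androgen-responsive ARR2/Pb probasin promoter, which is active in prostate epithelium, and the WT mouse carries none. The lobes were dissociated to cell suspensions before RNA was taken, so each library mixes epithelial, stromal and immune cells. With 1 animal per genotype there is no replicate check, genotype and animal cannot be told apart, and no test across samples was run.

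Translation initiation is the step in which the small ribosomal subunit, carrying the initiator tRNA, is brought to the 5′ end of an mRNA and moved to its start codon. eIF2 delivers the initiator tRNA and eIF2B recharges eIF2 with GTP, eIF3 is the large scaffold on the small subunit, and the eIF4 group recognises the cap and unwinds the mRNA. eIF1 and eIF1A hold the scanning complex open until the start codon is met, eIF5 and eIF5B close the step by GTP hydrolysis and subunit joining, and eIF6 keeps the large subunit apart. In bulk RNA a lower level may reflect fewer cells of a type or less RNA per cell, and these cannot be told apart.

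In VP, 23 of the 48 members were at least 1.5-fold higher in MYC than in WT and 1 was at least 1.5-fold lower, against 16.7% and 14.9% of all genes in the same directions. The 23 became 14 when the libraries were scaled to equal sums of FPKM and 19 under the other scalings. In DLP none was 1.5-fold higher and 1 was lower (all genes 13.4% and 9.44%), and in AP none was higher and 2 were lower (all genes 7.53% and 3.13%). These counts use the log2 ratio of FPKM + 1, called the log2 ratio below, which slightly understates the change of low genes. For AP, DLP and VP the median log2 ratio of the members was 0.02, 0.10 and 0.52, beside 0.13, 0.03 and 0.04 over all 12361 genes. Relative to the all-gene median, the members' median was 0.48 above it in VP as deposited and 0.43 to 0.46 above it under 3 other scalings of the libraries, whereas in AP the difference was -0.10 (-0.12 to -0.11 under those scalings). The 11 members at least 2-fold higher in VP (all genes 6.88%) were 7 eIF3 genes, the alternative tRNA carriers Eif2a and Eif2d, Eif2b1 and Eif4b. The 11 became 7 with median-of-ratios size factors, 6 with trimmed-mean scaling and 1 (Eif3i) with equal sums. Eif2s1, Eif2b5, Eif3b and Eif4ebp3 were not called in VP under any of the 3 other scalings, and Eif2b4, Eif4a1, Eif4e2, Eif4e3 and Eif5a were not called with equal sums.

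**Figure D1:**
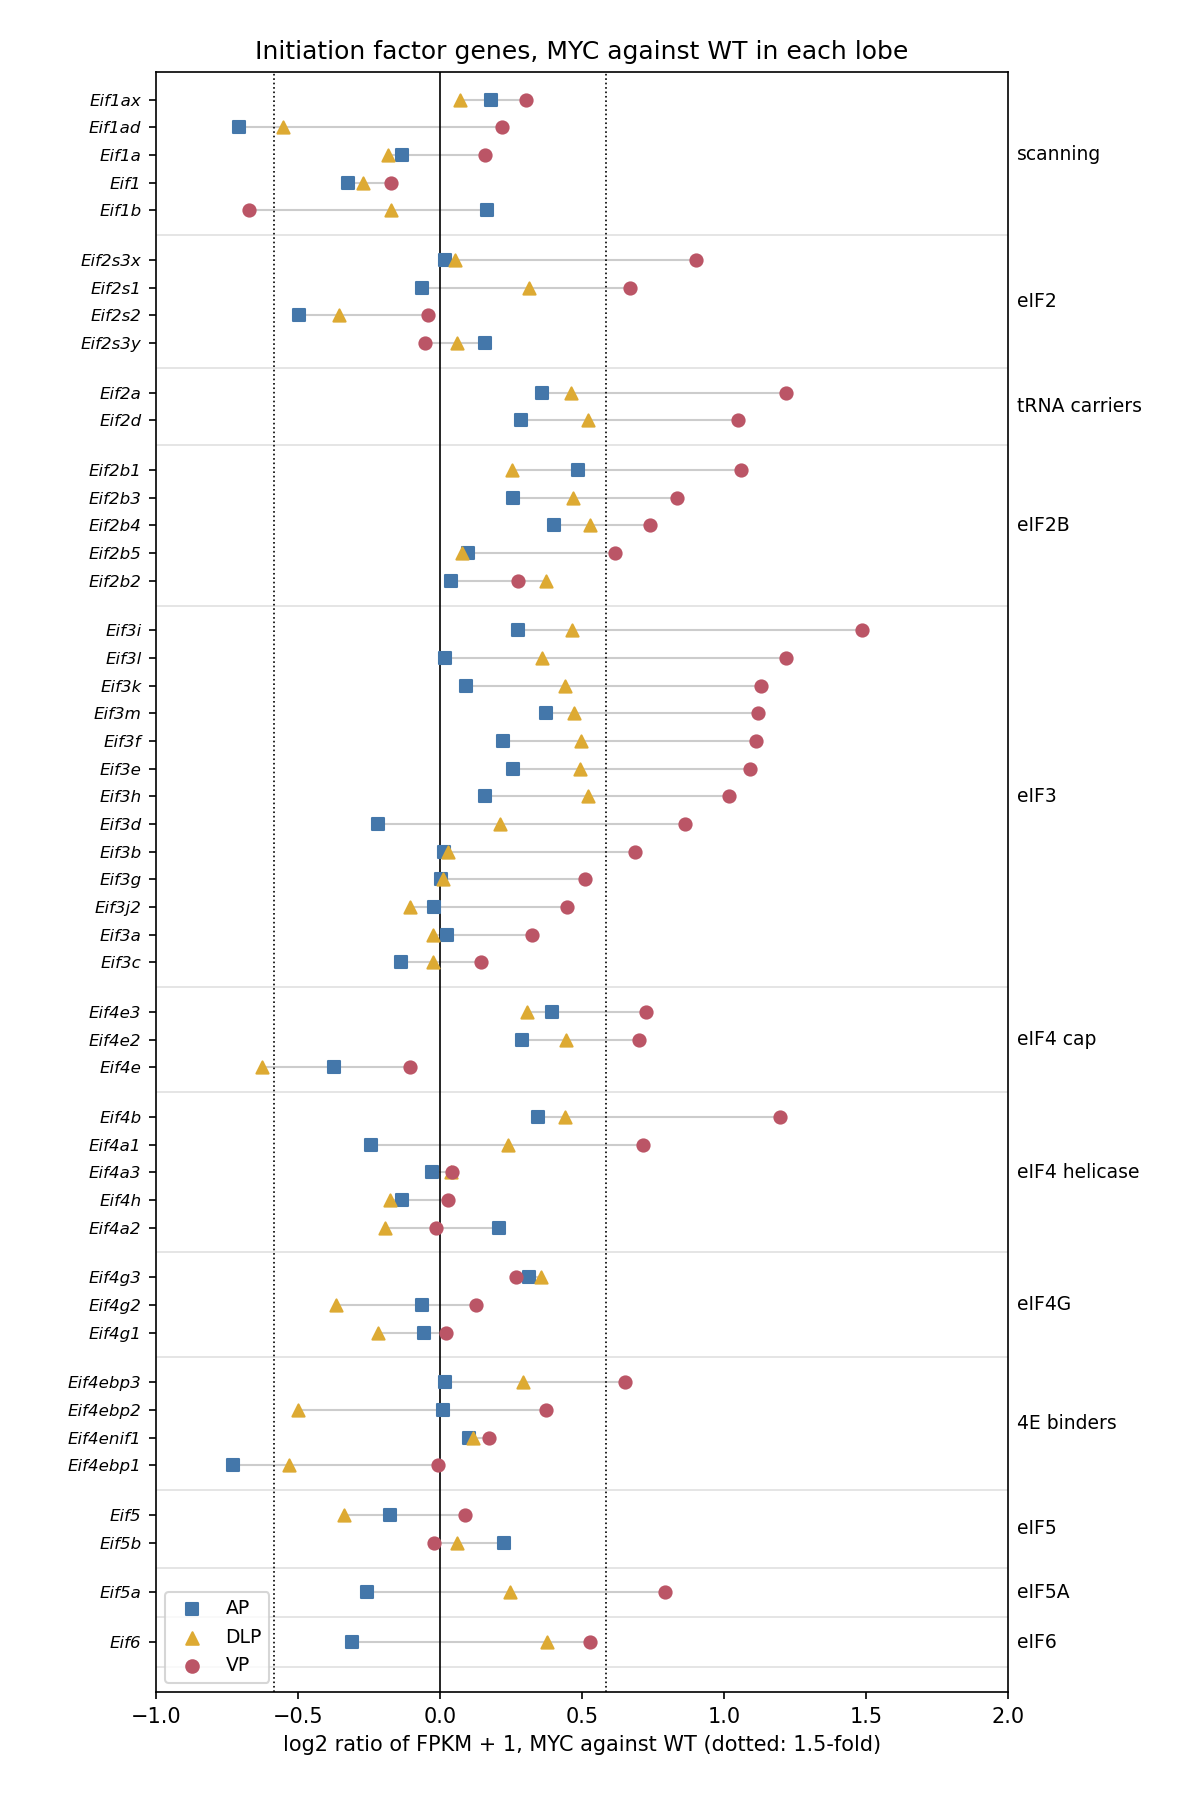
Log2 ratio of FPKM + 1 between the MYC and WT library of each lobe (x axis) for the 48 members, grouped by role (AP squares, DLP triangles, VP circles), with dotted lines at 1.5-fold. Most VP circles lie right of the AP and DLP symbols, while Eif4e, Eif4g1, Eif4g2, Eif5 and Eif1 stay near or left of 0.

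The libraries hold an estimated 25.5 to 50.2 M mapped reads, and the member with the fewest reads in any lobe was Eif2b1, with about 118 in WT AP. Intervals in brackets are exact 95% binomial intervals of the FPKM ratio (without the added 1) from the estimated reads, and cover counting error only, not differences between animals. The depths behind them are approximate, since only 33.3% to 50.3% of the low values used to estimate them lay within 3% of whole reads. The Myc row stood at 230.0, 201 and 226 FPKM in WT AP, DLP and VP and at 231, 586 and 1696 FPKM in MYC, in the same order, and the table has no separate row for the human transgene. Whether transgene reads are counted in this row cannot be told from the files, so the MYC values may be of mouse Myc, the transgene or both. Cell type markers also differed between the libraries. The 8 hematopoietic markers were all higher in MYC DLP and MYC VP, and their sum in VP was 40.7 FPKM for WT against 223 FPKM for MYC, in DLP 88.5 against 364 FPKM, and in both AP libraries 183 FPKM. The 6 fibroblast markers in VP summed to 648 FPKM (WT) and 195 FPKM (MYC), with 5 of 6 lower in MYC. In DLP they summed to 1284 and 698 FPKM, a sum led by Dcn (1155 and 454 FPKM), while the 3 collagen genes of the list were higher in MYC. The 6 smooth muscle markers summed to 358 and 220 FPKM in VP and to 419 and 245 FPKM in DLP. In AP the smooth muscle sum was 233 FPKM for WT and 373 FPKM for MYC. The 4 basal markers summed to 1337 and 859 FPKM in AP, 918 and 1286 FPKM in DLP and 407 and 278 FPKM in VP. The AP sum was led by Krt14 (760 and 333 FPKM). There 2 of the 4 were higher in MYC, Krt5 slightly (108.9 and 109.2 FPKM) and Trp63 (5.79 and 19.2 FPKM). In VP the 6 luminal markers summed to 3587 and 2949 FPKM. The 3 proliferation markers were higher in MYC in every lobe, from 1.69 to 8.67 FPKM in AP, 1.42 to 25 FPKM in DLP and 1.68 to 27.7 FPKM in VP. The 3 lobe secretion genes (Pbsn, Msmb and Defb50) were each lower in MYC VP and MYC DLP, with VP sums of 15842 (WT) and 581 (MYC) FPKM and DLP sums of 41238 and 5479 FPKM. Seminal vesicle secretion genes were listed at 0 in WT AP and summed to 513 FPKM in MYC AP, and were at 0 in both VP libraries. The part of these differences in the results below was not tested.

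The start codon scanning factors had median log2 ratios of -0.13 (AP), -0.18 (DLP) and 0.16 (VP), the last below 0 when libraries were scaled to equal sums, and none of the 5 was at least 1.5-fold higher in a lobe. Eif1, which guards start codon choice, was at 335, 306 and 226 FPKM in WT AP, DLP and VP and 267, 253 and 201 FPKM in MYC. It was lower in MYC in all 3 lobes, at 0.799 [0.769 to 0.830], 0.828 [0.798 to 0.859] and 0.888 [0.853 to 0.924] of the WT level. Its paralogue Eif1b was at 19.3 (AP), 20.4 (DLP) and 23.1 (VP) FPKM in WT and 21.7, 18 and 14.1 FPKM in MYC. It was the only member at least 1.5-fold lower in VP, with a ratio of 0.612 [0.543 to 0.689], while its AP interval of 0.994 to 1.28 includes 1. The coding sequences of Eif1 and Eif1b are 81.3% identical, with a longest shared run of 25 bases, so that the 75-base reads can mostly be assigned.

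Eif1a, the autosomal eIF1A gene, was at 57.7, 42.4 and 36.9 FPKM in WT AP, DLP and VP and 52.5, 37.3 and 41.4 FPKM in MYC. Its X-linked copy Eif1ax was at 10.5 (AP), 10.8 (DLP) and 9.12 (VP) FPKM in WT and 12.1, 11.3 and 11.5 FPKM in MYC. The largest log2 ratio between MYC and WT for either gene was 0.30, that of Eif1ax in VP. Every MYC library of Eif1ax lay above every WT library, which was so for 6 of the 48 members and 10.7% of all genes. Eif1ad, which encodes a protein with an eIF1A domain, was at 11.5, 11.4 and 5.93 FPKM in WT AP, DLP and VP and 6.63, 7.44 and 7.06 FPKM in MYC. It was lower in MYC AP (ratio 0.578 [0.520 to 0.642]) and, short of 1.5-fold on the log2 ratio, in MYC DLP (0.654 [0.591 to 0.722]), but not in VP (1.19 [1.07 to 1.33]), where WT VP was the lowest of the 6 libraries.

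The subunits of the eIF2 trimer differed from each other. Eif2s1, the alpha subunit that is phosphorylated under stress, was at 21.4 (AP), 19.7 (DLP) and 21.6 (VP) FPKM in WT and 20.5, 24.7 and 34.9 FPKM in MYC. Eif2s3x, the X-linked gamma subunit that binds the initiator tRNA, was at 29.5, 31.5 and 29.8 FPKM in WT AP, DLP and VP and 29.9, 32.7 and 56.4 FPKM in MYC. Both were higher in MYC VP, with ratios of 1.62 [1.55 to 1.69] and 1.90 [1.80 to 2.0]. Eif2s2, the beta subunit, was at 105 (AP), 76.2 (DLP) and 71.4 (VP) FPKM in WT and 73.9, 59.3 and 69.2 FPKM in MYC. It was below WT in AP (0.706 [0.684 to 0.728]) and DLP (0.778 [0.752 to 0.805]) and near it in VP (0.970 [0.941 to 1.0]). Eif2s3y, the Y-linked gamma subunit, was at 34.1, 36.9 and 47.4 FPKM in WT AP, DLP and VP and 38.2, 38.5 and 45.7 FPKM in MYC and its VP ratio was 0.964 [0.907 to 1.02]. The FPKM ratio of Eif2s3x to Eif2s3y was thus 0.865, 0.852 and 0.627 in WT AP, DLP and VP and 0.782, 0.848 and 1.23 in MYC, so that the X-linked copy exceeded the Y-linked one only in MYC VP. Eif2s1 had the lowest FPKM of the 4 genes in each library.

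Eif2a and Eif2d encode proteins that can bring a tRNA to the ribosome without eIF2. Eif2a was at 21.6 (AP), 22.3 (DLP) and 25.4 (VP) FPKM in WT and 28.0, 31.1 and 60.6 FPKM in MYC. Eif2d was at 9.44, 12.3 and 19.6 FPKM in WT AP, DLP and VP and 11.7, 18 and 41.6 FPKM in MYC. Both were higher in MYC in every lobe and most in VP, at 2.38 [2.26 to 2.51] and 2.13 [2.01 to 2.25]. Eif2a was among the 6 members whose MYC libraries all lay above the WT libraries, and Eif2d was not, since WT VP exceeded MYC AP and MYC DLP.

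All 5 subunits of eIF2B, the exchange factor that recharges eIF2, had log2 ratios above 0 in all 3 lobes as deposited (all genes 29.9%). Their medians were 0.26 (AP), 0.37 (DLP) and 0.74 (VP). The AP values of Eif2b2 and Eif2b5 were below 0 under median-of-ratios and trimmed-mean scaling. In VP 4 of 5 were at least 1.5-fold higher (all genes 16.7%), 2 with equal sums of FPKM and 3 under the other scalings. Eif2b1, the alpha subunit, was at 7.23 (AP), 14.7 (DLP) and 13.1 (VP) FPKM in WT and 10.5, 17.7 and 28.3 FPKM in MYC. Eif2b3 (gamma) was at 7.14, 6.54 and 9.29 FPKM in WT AP, DLP and VP and 8.73, 9.44 and 17.3 FPKM in MYC. These had the largest VP ratios of the complex, 2.17 [1.92 to 2.45] and 1.87 [1.68 to 2.08]. Eif2b4 (delta) was at 6.46 (AP), 8.78 (DLP) and 13.3 (VP) FPKM in WT and 8.85, 13.1 and 22.8 FPKM in MYC. Eif2b5, the catalytic epsilon subunit, was at 10.9, 13.3 and 14.0 FPKM in WT AP, DLP and VP and 11.8, 14.1 and 22 FPKM in MYC. Their VP ratios were 1.72 [1.56 to 1.90] and 1.57 [1.46 to 1.69]. Eif2b2 (beta) was at 13.1 (AP), 17.0 (DLP) and 23.8 (VP) FPKM in WT and 13.5, 22.3 and 28.9 FPKM in MYC, with the smallest VP ratio, 1.22 [1.10 to 1.35]. The summed VP level of the 5 genes was 73.4 FPKM for WT and 119 FPKM for MYC, and divided by Eif2s1 it was 3.40 and 3.42.

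eIF3 as a group was higher in MYC VP. All 13 members had a VP log2 ratio above 0, although Eif3c was below 0 when libraries were scaled to equal sums of FPKM, and 9 were at least 1.5-fold (all genes 16.7%) and 7 at least 2-fold higher (all genes 6.88%). The 9 became 8 under each of the 3 other scalings, and the 7 became 5 with median-of-ratios size factors, 4 with trimmed-mean scaling and 1 with equal sums. The group medians were 0.03 (AP), 0.36 (DLP) and 1.02 (VP), and the AP median was -0.13 with median-of-ratios and -0.12 with trimmed-mean scaling. Its sum was 962, 1115 and 1100 FPKM in WT AP, DLP and VP and 1027, 1399 and 2067 FPKM in MYC. The 7 with at least 2-fold are Eif3e, Eif3f, Eif3h, Eif3k, Eif3l and Eif3m, subunits of the octamer that forms the body of eIF3, and Eif3i, a WD-repeat subunit. The same octamer contains Eif3a and Eif3c, its largest subunits, which were not called.

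Eif3i was at 57.5, 95.9 and 79.2 FPKM in WT AP, DLP and VP and 69.6, 133 and 224 FPKM in MYC. Its VP ratio, 2.82 [2.71 to 2.94], was the highest of all 48 members. Eif3l was at 46.2 (AP), 49.9 (DLP) and 40.4 (VP) FPKM in WT and 46.8, 64.3 and 95.2 FPKM in MYC. Eif3k was at 87.7, 114 and 103 FPKM in WT AP, DLP and VP and 93.5, 155 and 226 FPKM in MYC. In VP their ratios were 2.36 [2.26 to 2.46] and 2.20 [2.11 to 2.30], and in AP Eif3l was at 1.01 [0.960 to 1.07]. Eif3m, which binds Eif3h and Eif3f in the octamer, was at 38.1 (AP), 54.5 (DLP) and 59.7 (VP) FPKM in WT and 49.6, 76.0 and 131 FPKM in MYC. Eif3f was at 104, 133 and 102 FPKM in WT AP, DLP and VP and 121, 188 and 221 FPKM in MYC. Their VP ratios were 2.19 [2.09 to 2.30] and 2.17 [2.10 to 2.25]. Eif3e was at 73.1 (AP), 78.6 (DLP) and 74.0 (VP) FPKM in WT and 87.5, 111 and 159 FPKM in MYC. Eif3h, the most abundant eIF3 gene in every library, was at 157, 174 and 182 FPKM in WT AP, DLP and VP and 175, 250.0 and 369 FPKM in MYC. Their VP ratios were 2.15 [2.07 to 2.22] and 2.03 [1.96 to 2.10], and Eif3e was the only eIF3 gene whose MYC libraries all lay above its WT libraries.

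Eif3d, the subunit that can itself bind a cap, was at 64.4 (AP), 66.5 (DLP) and 62.5 (VP) FPKM in WT and 55.2, 77.1 and 114 FPKM in MYC. It differed in sign between lobes, at 0.858 [0.819 to 0.899] in AP and 1.83 [1.77 to 1.90] in VP. Eif3b, a scaffold that holds Eif3g and Eif3i, was at 43.3, 59.7 and 51.5 FPKM in WT AP, DLP and VP and 43.7, 60.9 and 83.6 FPKM in MYC, with a VP ratio of 1.62 [1.57 to 1.67]. The other subunits differed less. Eif3g was at 74.0 (AP), 88.7 (DLP) and 93.1 (VP) FPKM in WT and 74.3, 89.4 and 133 FPKM in MYC, and its VP ratio was 1.43 [1.37 to 1.49]. Eif3a was at 99.1, 93.0 and 123 FPKM in WT AP, DLP and VP and 101, 91.3 and 154 FPKM in MYC. Eif3c was at 78.8 (AP), 71.8 (DLP) and 81.7 (VP) FPKM in WT and 71.5, 70.6 and 90.5 FPKM in MYC. Their VP ratios were 1.25 [1.23 to 1.28] and 1.11 [1.07 to 1.14], the smallest of the complex. Eif3j2 was at 38.8, 35.5 and 48.6 FPKM in WT AP, DLP and VP and 38.2, 33.0 and 66.6 FPKM in MYC, and its VP ratio was 1.37. Its close copy Eif3j1 is listed at almost 0, so how reads were shared between the pair is uncertain, and the Eif3j2 values may hold reads of both.

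**Figure D2:**
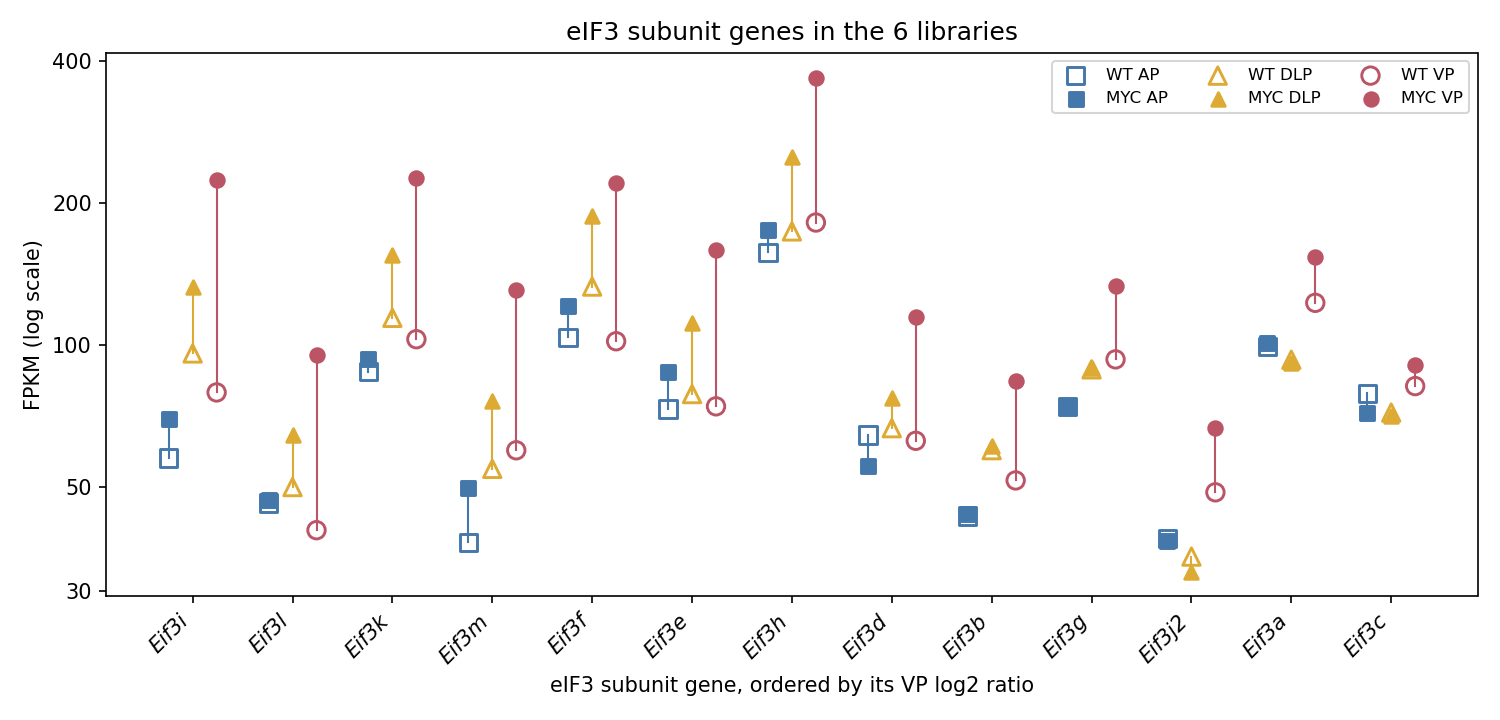
FPKM (log axis) of the 13 eIF3 subunit genes in the 6 libraries, WT as open and MYC as filled symbols joined by a line within a lobe, ordered by VP log2 ratio. In VP the gap between symbols shrinks from Eif3i (79.2 to 224 FPKM) to Eif3c (81.7 to 90.5 FPKM), and in AP the symbols nearly overlap for most genes.

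The subunits that were 2-fold higher in VP also had the larger values in DLP, where no eIF3 gene was called. There Eif3e, Eif3f, Eif3h, Eif3i, Eif3k, Eif3l and Eif3m had log2 ratios of 0.36 to 0.52, whereas Eif3a, Eif3b, Eif3c, Eif3g and Eif3j2 ranged from -0.10 to 0.03 and Eif3d was at 0.21. The DLP libraries are others than the VP libraries but come from the same 2 animals. Levels among the 13 genes differed by 4.50-fold from Eif3l to Eif3h in WT VP and by 5.54-fold from Eif3j2 to Eif3h in MYC VP. The coefficient of variation across the 12 genes other than Eif3j2 was 43.3% in WT VP and 49.1% in MYC VP, 40.1% and 51.0% in DLP and 42.8% and 45.6% in AP, so the subunit mRNA levels were less even in the MYC library of each lobe.

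The eIF4 group, which reads the cap, was mixed. Eif4e, the cap-binding protein, was at 30.9 (AP), 33.7 (DLP) and 21.7 (VP) FPKM in WT and 23.6, 21.4 and 20.1 FPKM in MYC. It was lower in all 3 MYC libraries, with ratios of 0.766 [0.724 to 0.809], 0.636 [0.603 to 0.671] and 0.925 [0.875 to 0.979] in AP, DLP and VP, and it is the single member called lower in DLP as deposited. Eif1ad was called there too under all 3 other scalings, and Eif4ebp1 under median-of-ratios and trimmed-mean scaling. Eif4e2, a cap-binding homologue often used to repress mRNAs, was at 18.4, 19.6 and 19.8 FPKM in WT AP, DLP and VP and 22.7, 27.1 and 32.8 FPKM in MYC. Eif4e3, a rarer homologue, was at 6.09 (AP), 7.46 (DLP) and 4.21 (VP) FPKM in WT and 8.31, 9.47 and 7.61 FPKM in MYC. Both lay above WT in every lobe and were higher in VP with ratios of 1.66 [1.56 to 1.76] and 1.81 [1.63 to 2.01], and for both every MYC library exceeded every WT library. The FPKM ratio of Eif4e2 to Eif4e was 0.596, 0.583 and 0.914 in WT AP, DLP and VP and 0.959, 1.26 and 1.63 in MYC.

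Among the helicase genes, Eif4a1 was at 337, 306 and 209 FPKM in WT AP, DLP and VP and 285, 362 and 344 FPKM in MYC. It was lower in MYC AP (0.845 [0.821 to 0.870]) and higher in MYC VP (1.64 [1.60 to 1.69]). Eif4a2, a paralogue with 77.8% identical coding sequence, was at 143 (AP), 166 (DLP) and 166 (VP) FPKM in WT and 165, 145 and 164 FPKM in MYC and its VP ratio was 0.991 [0.958 to 1.03]. Eif4a3, which belongs to the exon junction complex, was at 40.1, 42.6 and 43.8 FPKM in WT AP, DLP and VP and 39.3, 43.8 and 45.1 FPKM in MYC, with a VP ratio of 1.03 [0.945 to 1.12]. The helicase cofactors Eif4b and Eif4h parted. Eif4b was at 72.5 (AP), 91.7 (DLP) and 99.6 (VP) FPKM in WT and 92.4, 125 and 229 FPKM in MYC. Eif4h was at 80.5, 92.4 and 61.6 FPKM in WT AP, DLP and VP and 73.2, 81.7 and 62.8 FPKM in MYC. In VP Eif4b was 2.30 [2.26 to 2.35] and Eif4h 1.02 [0.984 to 1.06] of WT, and the FPKM ratio of Eif4b to Eif4h went from 1.62 in WT VP to 3.65 in MYC VP. The VP signs of Eif4h and Eif4a3 turned under all 3 scalings. The scaffolds that bridge cap and ribosome stayed within 1.5-fold in all lobes. Eif4g1 was at 80.5 (AP), 92.9 (DLP) and 104 (VP) FPKM in WT and 77.3, 79.7 and 106 FPKM in MYC. Eif4g2, which lacks the Eif4e binding part, was at 115, 123 and 118 FPKM in WT AP, DLP and VP and 110.3, 95.1 and 128 FPKM in MYC. Eif4g3 was at 21.6 (AP), 19.9 (DLP) and 22.9 (VP) FPKM in WT and 27.1, 25.7 and 27.8 FPKM in MYC. Their VP ratios were 1.01 [0.989 to 1.04], 1.09 [1.06 to 1.13] and 1.21 [1.16 to 1.28], and the VP sign of Eif4g1 turned under all 3 scalings and that of Eif4g2 under equal sums.

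The 4E-BPs bind Eif4e and keep it from the scaffolds until mTOR phosphorylates them. Eif4ebp1 was at 36.9, 58.1 and 103 FPKM in WT AP, DLP and VP and 21.8, 39.9 and 103 FPKM in MYC. It was lower in MYC AP (0.592 [0.536 to 0.655]) and in MYC DLP (0.687 [0.637 to 0.739], short of 1.5-fold) and level in VP (0.995 [0.949 to 1.04]), where both libraries were far above the other 4. Eif4ebp2 was at 32.5 (AP), 47.0 (DLP) and 44.3 (VP) FPKM in WT and 32.7, 32.9 and 57.6 FPKM in MYC. Eif4ebp3 was at 11.0, 11.2 and 7.76 FPKM in WT AP, DLP and VP and 11.1, 13.9 and 12.8 FPKM in MYC. Eif4ebp2 was below WT in DLP (0.700 [0.659 to 0.744]), and Eif4ebp3 was above WT in VP (1.65 [1.37 to 1.97]). Eif4enif1, which carries Eif4e into the nucleus and to P-bodies, was at 11.5 (AP), 11.7 (DLP) and 10.1 (VP) FPKM in WT and 12.4, 12.7 and 11.5 FPKM in MYC, within 1.14-fold of WT in each lobe. The summed 4E-BP level divided by Eif4e was 2.60, 3.45 and 7.17 in WT AP, DLP and VP and 2.78, 4.05 and 8.63 in MYC, so that VP stood further from the other lobes than MYC from WT in any lobe.

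**Figure D3:**
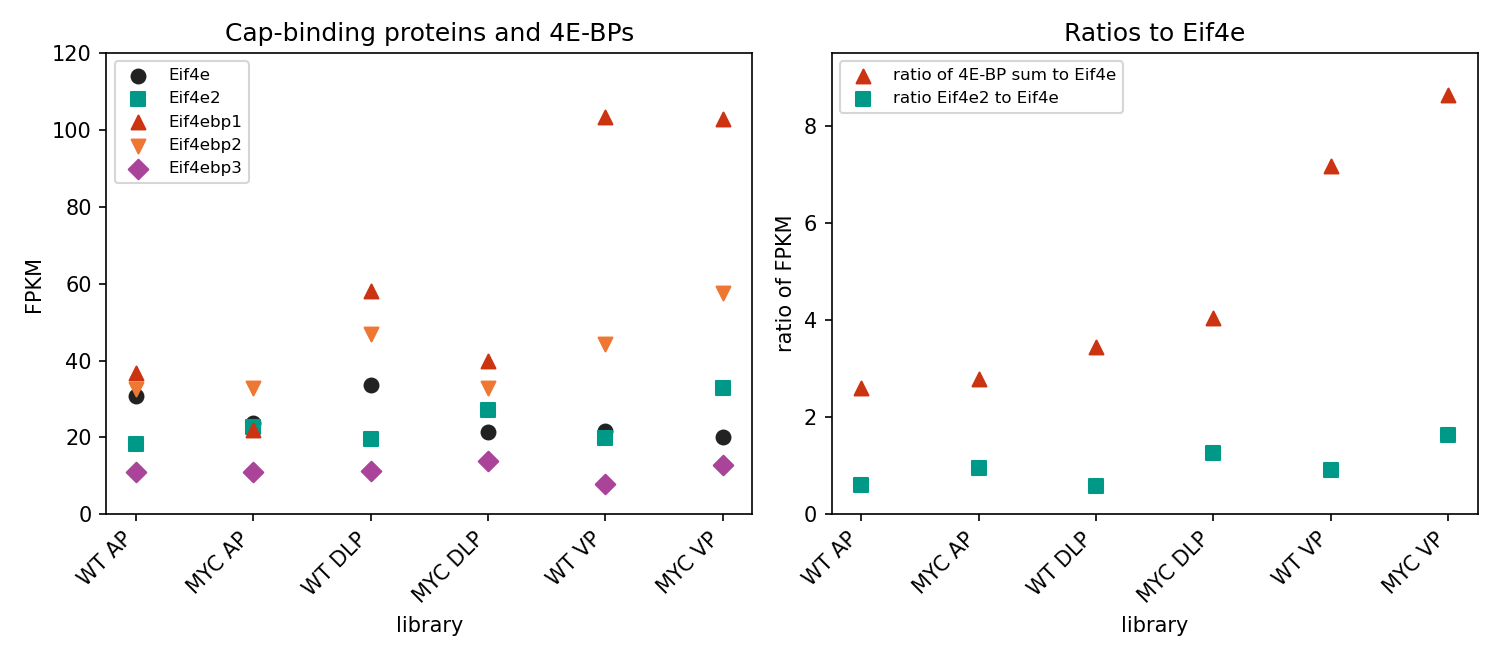
Left, FPKM of Eif4e, Eif4e2 and the 3 4E-BP genes in the 6 libraries. Right, the FPKM ratios of Eif4e2 and of the summed 4E-BPs to Eif4e. The 4E-BP ratio is 7.17 and 8.63 in the VP libraries and at most 4.05 elsewhere, and the Eif4e2 ratio is higher in MYC than in WT in each lobe.

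The late factors split as well. Eif5, which triggers GTP hydrolysis on eIF2, was at 90.8, 87.1 and 75.6 FPKM in WT AP, DLP and VP and 80.3, 68.7 and 80.4 FPKM in MYC. Eif5b, which joins the subunits, was at 20.4 (AP), 20.8 (DLP) and 31.4 (VP) FPKM in WT and 24.1, 21.7 and 30.9 FPKM in MYC. Their VP ratios were 1.06 [1.03 to 1.10] and 0.985 [0.959 to 1.01], neither reached 1.5-fold in a lobe, and the VP sign of Eif5 turned under all 3 scalings. Eif5a, a factor that carries hypusine and acts mainly in elongation, was at 303, 326 and 313 FPKM in WT AP, DLP and VP and 253, 387 and 542 FPKM in MYC. It was lower in MYC AP (0.835 [0.811 to 0.860]) and higher in MYC DLP (1.19 [1.16 to 1.21]) and VP (1.73 [1.70 to 1.77]), and in MYC VP it was the highest of the 48 members. Its paralogue Eif5a2 was not above 0.738 FPKM in any library. Eif6 was at 48.1 (AP), 48.0 (DLP) and 29.0 (VP) FPKM in WT and 38.6, 62.7 and 42.3 FPKM in MYC, and its AP, DLP and VP ratios were 0.803 [0.731 to 0.884], 1.3 [1.21 to 1.41] and 1.46 [1.33 to 1.60].

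Across lobes, most members had their highest log2 ratio in VP as deposited. The VP log2 ratio exceeded those of AP and DLP in 42 of 48 members (87.5%), against 34.4% of all genes. The order VP above DLP above AP held for 29 members (60.4%), against 19.9% of all genes. MYC VP was the highest of the 6 libraries for 30 members, against 26.8% of all genes. These counts use the values as deposited and were not remade under the other scalings. Equal sums took the all-gene median from 0.04 to -0.15 in VP, but only from 0.13 to 0.11 in AP. Log2 ratios were above 0 in all 3 lobes for 24 members (all genes 29.9%). They were below 0 in all 3 for Eif1, Eif2s2, Eif4e and Eif4ebp1 (8.33% of members, all genes 13.9%). Of these, Eif4ebp1 was at only -0.008 in VP. No member had every MYC library below every WT library, against 3.06% of all genes. Small ratios turned sign in 11 members in AP, 6 in DLP and 8 in VP under at least 1 other setting, but none of the called ones did. The members together held 0.845%, 0.779% and 0.774% of the FPKM sum in WT AP, DLP and VP and 0.800%, 0.815% and 0.997% in MYC. As a share, the members were therefore lower in MYC AP than in WT AP and highest in MYC VP.

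Other translation genes differed from WT by other amounts. The 77 cytosolic ribosomal protein genes had median log2 ratios of 0.29, 0.68 and 1.35 in AP, DLP and VP, above the members in each lobe. The 18 cytosolic aminoacyl-tRNA synthetase genes, which charge tRNAs, had medians of -0.34, -0.24 and 0.14, below them. The 7 elongation factor genes had a VP median of 1.48, with 5 at least 1.5-fold higher (all genes 16.7%). Among these the VP libraries held Eef1b2 at 146 FPKM (WT) and 576 FPKM (MYC), Eef1g at 357 and 1175 FPKM, Eef2 at 759 and 2259 FPKM and Eef1a1 at 3965 and 11063 FPKM.

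**Figure D4:**
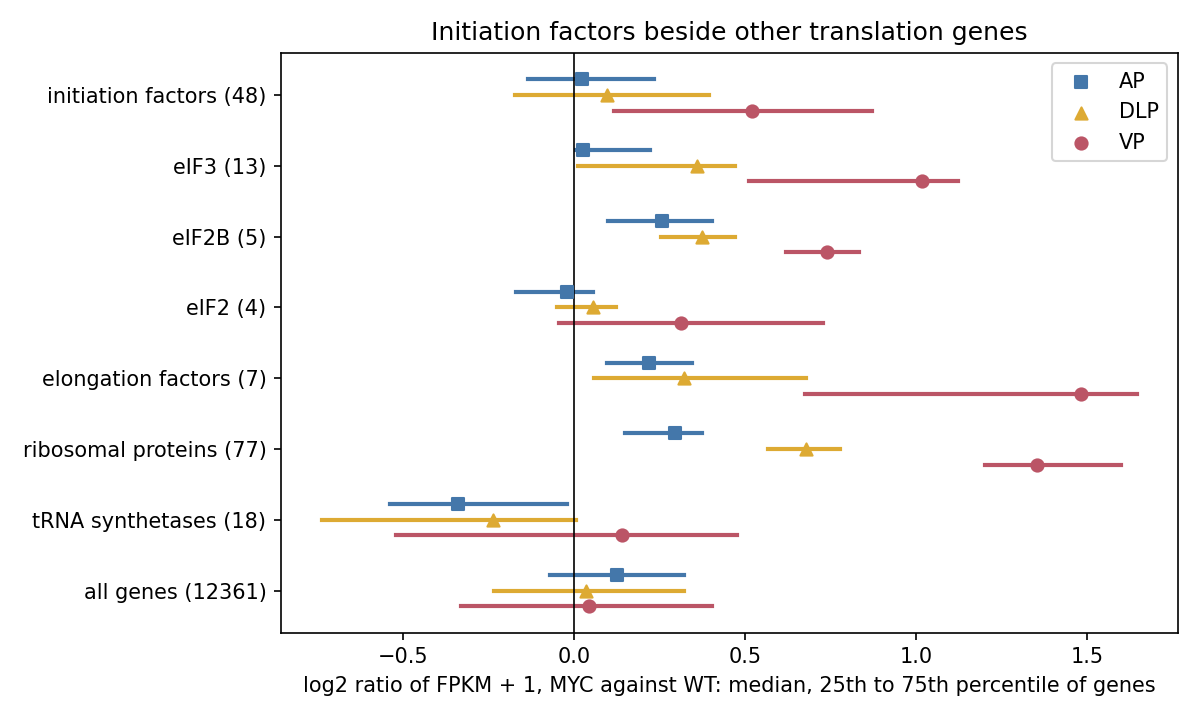
Median log2 ratio of FPKM + 1 (symbols) and the 25th to 75th percentile of genes (bars) for MYC against WT in each lobe, for initiation factors, 3 of their complexes and other translation genes, with the number of genes in brackets. In VP the medians are 0.52 for initiation factors, 1.02 for eIF3, 1.35 for ribosomal proteins and 0.04 for all genes.

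Of 41 other genes of the pathway, 7 were at least 1.5-fold higher and 6 lower in VP, 4 and 3 in DLP, and 3 and 3 in AP. As shares these were 17.1% and 14.6% in VP (all genes 16.7% and 14.9%), 9.76% and 7.32% in DLP (13.4% and 9.44%) and 7.32% each in AP (7.53% and 3.13%), so in VP the list was at the share of all genes. Eif2ak2, the RNA-activated kinase of Eif2s1, was at 2.86, 2.82 and 2.53 FPKM in WT AP, DLP and VP and at 5.08, 7.93 and 6.32 FPKM in MYC, higher in each lobe. The targets of the stress response that follows phosphorylation of Eif2s1 were at least 1.5-fold lower for 3 of 5 genes in AP and in DLP and for 4 of 5 in VP. Trib3, a pseudokinase, was at 11.0, 8.58 and 5.48 FPKM in WT and 4.02, 4.87 and 1.90 FPKM in MYC. Ddit3, a transcription factor of this response, was at 68.5, 61.9 and 238 FPKM in WT and 68.4, 84.1 and 97.3 FPKM in MYC, so that it was level in AP and lower in VP. Chac1, which degrades glutathione, had log2 ratios of -0.90, -0.78 and -1.06. Asns, asparagine synthetase, was the exception in VP, with log2 ratios of -1.12, -0.95 and 0.58.

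In the WT mouse a smaller share of these genes than of all genes differed by 1.5-fold between lobes. Between DLP and AP, 3 members were at least 1.5-fold higher in DLP and none lower (all genes 12.2% and 4.98%). Between VP and AP, 7 were higher and 4 lower in VP (17.1% and 20.7%), and between VP and DLP 2 were higher and 4 lower in VP (6.93% and 17.9%). The median log2 ratios were 0.10, 0.11 and -0.06, beside 0.10, -0.01 and -0.13 over all genes. These 3 comparisons share libraries of 1 animal, and the signs of their medians turned with the scaling, for VP against DLP to 0.19 with trimmed-mean scaling, where 9 were higher and 1 lower. Eif2b1 and Eif3i were higher in DLP than in AP, with ratios of 2.03 [1.66 to 2.52] and 1.67 [1.57 to 1.78], and the third was Eif4ebp1 (1.58 [1.45 to 1.72]).

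Eif4ebp1 gave the widest WT difference, with VP at 2.80 [2.59 to 3.04] of AP and 1.78 [1.69 to 1.87] of DLP. The other 6 higher in VP than in AP were Eif2d (2.07 [1.88 to 2.29]), Eif2b1, Eif2b2, Eif2b4, Eif3m and Eif5b. Lower in VP than in AP were Eif1ad (0.517 [0.463 to 0.576]), Eif6 (0.603 [0.545 to 0.668]), Eif4a1 (0.620 [0.601 to 0.640]) and Eif1a (0.640 [0.610 to 0.671]). Against DLP, VP was higher in Eif4ebp1 and Eif2d and lower in Eif1ad, Eif6, Eif4e3 and Eif4e, the last at 0.643 [0.613 to 0.675]. The markers of the lobes differ too, with the luminal list at 1823, 1748 and 3587 FPKM and the basal list at 1337, 918 and 407 FPKM in WT AP, DLP and VP.

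**Figure D5:**
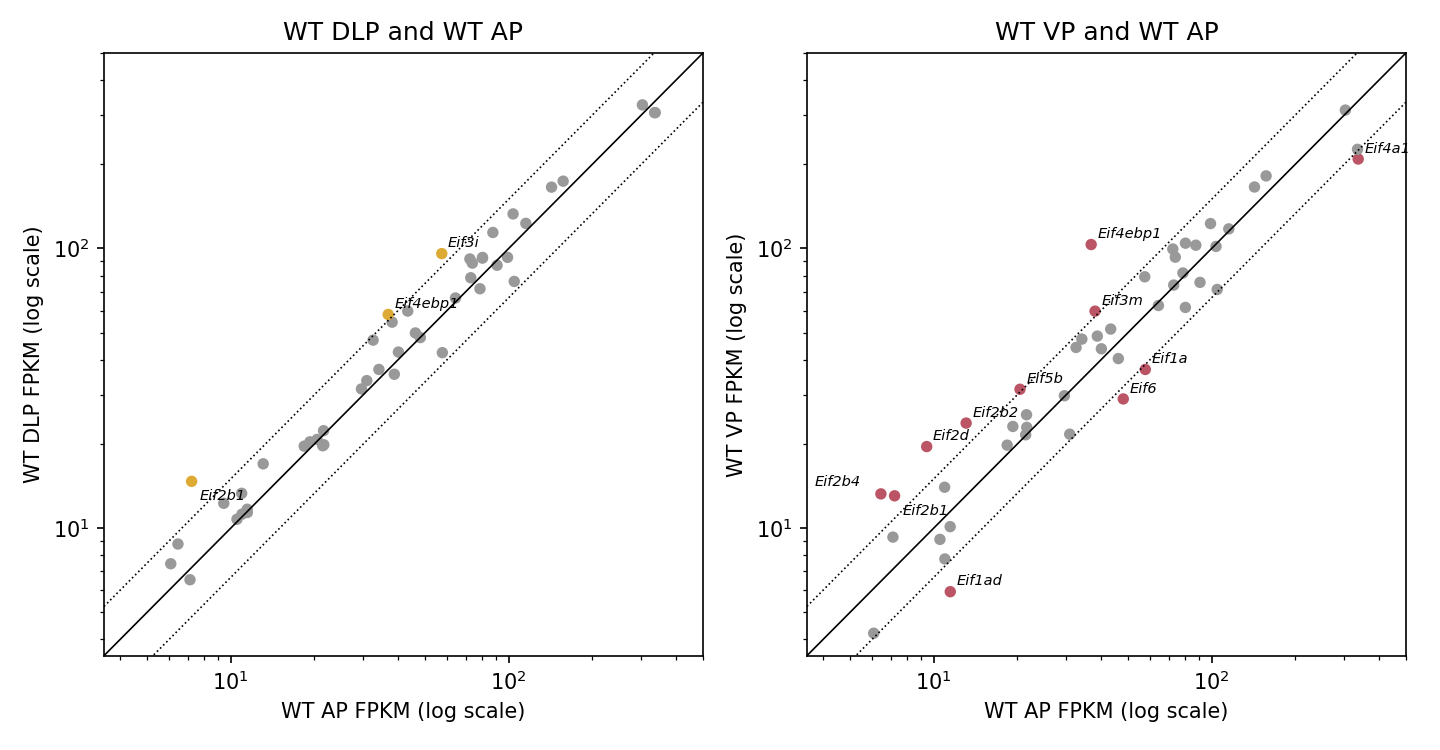
FPKM of the 48 members in WT AP (x axis) against WT DLP (left) and WT VP (right), on log axes, with the diagonal, dotted lines at an FPKM ratio of 1.5 either way, and coloured, named points past 1.5-fold on FPKM + 1. DLP has 3 such points, all above the diagonal, and VP has 7 above and 4 below, with Eif4ebp1 farthest from the line (36.9 to 103 FPKM).

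Where the members lie in the genome was looked at last (mouse assembly GRCm38.p6, which is mm10). All 5 members on chromosome 15 were at least 1.5-fold higher in VP, namely Eif3e (chr15:43250040-43282736), Eif3h (chr15:51786563-51865461), Eif3d (chr15:77958998-77970824), Eif3l (chr15:79075223-79094400) and Eif4b (chr15:102073773-102097173). Their median VP log2 ratio was 1.09, while the 485 genes of chromosome 15 that reach 1 FPKM had a median of 0.06, with 22.5% at least 1.5-fold higher. This chromosome was picked after its values were seen. The other genes at least 2-fold higher lie elsewhere, such as Eif3i (chr4:129591974-129600648), Eif3m (chr2:104999656-105017027) and Eif2a (chr3:58525821-58557501). Across the 47 members with a transcript length, the Spearman correlation of length with the VP log2 ratio was -0.11, and it was -0.15 across 11130 genes, which share the 2 libraries.

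MYC binds the E-box CACGTG, which reads the same on both strands, so RefSeq start windows (250 bases before to 50 after each annotated start, 300 in all) were searched for these 6 letters. A window was found for 37 of 48 members. Of these, 9 (24.3%) hold the motif in at least 1 window, against 12.0% of the 9561 genes with a window that reach 1 FPKM and 8.09% of all 27025 genes with a window (7.15% of 32851 single windows). It is in 4 of the 17 members at least 1.5-fold higher in VP and in 5 of the other 20, so its presence did not separate them. The 250 bases before the start are shown, 5′ to 3′ with CACGTG in capitals, for a pair of eIF3 subunits that were over 2-fold higher in VP and hold it (Eif3f and Eif3k), for another subunit that was over 2-fold higher and does not (Eif3l), and for the scaffold Eif4g1, which holds it and was near WT in VP.
Eif3f (chr7:108934165-108934414, + strand): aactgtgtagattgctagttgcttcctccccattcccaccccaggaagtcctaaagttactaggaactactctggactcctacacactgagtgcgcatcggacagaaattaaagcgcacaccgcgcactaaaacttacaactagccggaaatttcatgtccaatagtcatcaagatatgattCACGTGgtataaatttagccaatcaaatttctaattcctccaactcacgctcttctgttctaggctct
Eif3k (chr7:28981889-28982138, - strand): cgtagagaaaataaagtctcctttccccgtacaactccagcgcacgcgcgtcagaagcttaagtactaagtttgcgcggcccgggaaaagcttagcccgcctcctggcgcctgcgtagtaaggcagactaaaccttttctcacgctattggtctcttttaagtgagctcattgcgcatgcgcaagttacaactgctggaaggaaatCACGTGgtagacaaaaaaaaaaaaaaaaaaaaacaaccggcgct
Eif3l (chr15:79074973-79075222, + strand): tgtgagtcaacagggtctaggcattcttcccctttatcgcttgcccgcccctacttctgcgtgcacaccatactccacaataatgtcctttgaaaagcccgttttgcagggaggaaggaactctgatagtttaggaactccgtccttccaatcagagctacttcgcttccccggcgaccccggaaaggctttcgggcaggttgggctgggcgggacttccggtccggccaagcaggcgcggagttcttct
Eif4g1 (chr16:20672477-20672726, + strand): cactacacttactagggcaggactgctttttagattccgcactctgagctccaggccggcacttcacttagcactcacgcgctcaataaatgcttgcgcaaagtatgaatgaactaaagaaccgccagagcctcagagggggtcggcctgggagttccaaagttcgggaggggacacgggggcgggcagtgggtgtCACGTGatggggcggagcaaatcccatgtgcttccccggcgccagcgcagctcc
In the bases shown the motif starts at position -68 in Eif3f, -44 in Eif3k and -54 in Eif4g1, counted from the annotated start, and the window of Eif4g1 holds another one after that start. The VP log2 ratios of the 4 genes are 1.11, 1.13, 1.22 and 0.02. A match of letters is not a measurement of binding, and starts in the annotation may differ from those used in the prostate.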

How the data were processed

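Bulk RNA-seq of 3 prostate lobes of 1 WT and 1 MYC mouse, 1 library each, was used. The authors made stranded poly(A) libraries, read single-end 75-base reads, demultiplexed with bcl2fastq 2.18, mapped with STAR to mm10 and quantified with Cufflinks in the VIPER pipeline (annotation not given in the sources used here), and deposited FPKM per gene. The FPKM are not whole numbers, so no count model was run, and library groups come from the sample titles. Genes whose mean FPKM was 1 or more were compared by the log2 ratio of FPKM + 1, with no test, and called at 1.5-fold. The members and lists were chosen with earlier results of these data known. Values in every library are given for members at least 1.5-fold different in any lobe, for the highest and lowest VP ratio in each role and for paralogue pairs. Other genes come from lists of pathway genes and are named where at least 2-fold different. Aminoacyl-tRNA synthetase and ribosomal protein genes were matched by symbol.

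Depth was estimated from single-exon genes of over 600 bases and under 0.3 FPKM, whose values fall in steps of 1 read. Steps were blurred: 33.3% to 50.3% of these values lay within 3% of whole reads, and the depths serve only for the counting intervals. Reads per gene used mean GENCODE M1 transcript lengths, found for 47 of the 48 members, less 200 bases, and Eif3j2, which has none, is given without an interval. Alternatives were median-of-ratios, equal-sum and trimmed-mean scalings, a pseudocount of 0.1, no minimum mean, a minimum mean of 10 FPKM and a 2-fold threshold. The computations were tested on simulated libraries. Paralogues were to be compared as proteins, and coding sequences were used instead, by global alignment. All 51 symbols were found in RefSeq (GRCm38.p6), which gave coordinates and start windows. The tools were Python 3.11.15 with matplotlib 3.10.9, scipy 1.17.1, pandas 2.3.3 and numpy 2.4.6. Single-cell and ChIP-seq data were not analysed here.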

Additional observations from a re-analysis of the deposited data

Results flagged for a closer look

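For 4 members, the MYC library was at least 1.5-fold above or below WT in VP or AP, while the counting interval in another lobe lay wholly on the other side of 1. The difference between lobes was not tested, since each lobe has 1 library per genotype. Eif3d had log2 ratios of 0.86 in VP and -0.22 in AP, a difference of 1.08. Eif4a1 had 0.72 in VP and -0.24 in AP, a difference of 0.96. Eif5a had 0.79 in VP and -0.26 in AP, a difference of 1.05. Eif1ad had -0.71 in AP and 0.22 in VP, a difference of -0.93.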

How the results depend on the processing

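With 1 library per group, no library could be left out, no p-value exists, and genotype and animal cannot be told apart. No called member changed sign under any scaling or with a pseudocount of 0.1. No paired analysis was possible because each group has 1 library. In VP, the members' median of 0.52 was 0.41 with median-of-ratios size factors, 0.40 with trimmed-mean scaling, 0.29 with equal sums and 0.45 with no minimum mean (which adds the 3 genes below 1 FPKM). The 23 members at least 1.5-fold higher in VP were 14 with equal sums and 11 at a 2-fold threshold, where the single lower one became 0. In a check chosen after seeing the data, these 11 became 7 with median-of-ratios size factors, 6 with trimmed-mean scaling and 1 with equal sums. In AP, the median of 0.02 was -0.12 with median-of-ratios and with trimmed-mean scaling, and the 2 lower members were 1 with a minimum mean of 10 FPKM and 0 at 2-fold. Eif2s2 was called lower in AP too with median-of-ratios and with trimmed-mean scaling. In DLP, the median of 0.10 was 0.038 with median-of-ratios, 0.047 with equal sums and 0.035 with trimmed-mean scaling. The 1 lower member there was 3 with median-of-ratios and trimmed-mean scaling, 2 with equal sums and with a pseudocount of 0.1, and 0 at 2-fold.

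Between WT lobes the signs are small and depend on the scaling. The DLP against AP median of 0.10 was -0.036 with median-of-ratios, -0.11 with equal sums and -0.0056 with trimmed-mean scaling. Its 3 higher and 0 lower members were 1 and 2 with equal sums, 0 higher at 2-fold and 1 lower with median-of-ratios. The VP against AP median of 0.11 was -0.015 with equal sums and 0.26 with trimmed-mean scaling. Its 4 lower members were 7 with equal sums, 1 with trimmed-mean scaling and 0 at 2-fold, and its 7 higher ones 1 at 2-fold. The VP against DLP median of -0.06 was 0.15 with median-of-ratios, 0.014 with equal sums and 0.19 with trimmed-mean scaling. Its 2 higher members were 8 with median-of-ratios, 4 with equal sums and with a pseudocount of 0.1, 9 with trimmed-mean scaling and 0 at 2-fold, and its 4 lower ones 1 with median-of-ratios and with trimmed-mean scaling, 2 with a minimum mean of 10 FPKM and 0 at 2-fold. The cause of these shifts was not tested. The scalings themselves moved the all-gene median by over 0.1, for example from 0.04 to -0.15 in VP with equal sums.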
